A study of Homo sapiens with 18 samples.

Results

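The filaggrin cluster of chromosome 1 was examined in the established human glioblastoma line U87MG, with and without Erastin. It comprised 8 genes of 58302 in the deposited table. They were the 7 genes of the S100-fused family (FLG, FLG2, HRNR, RPTN, CRNN, TCHH and TCHHL1) and FLG-AS1, a long noncoding RNA on the opposite strand. FLG was chosen by its higher counts in Erastin-treated cells, and the others were selected on their family and their position beside it, so the counts of all 8, and the fitted difference of those that passed the filter, are given as a description with no p-value. Of the 8 genes, 5 passed the filter on low counts, 1 had counts below it and 2 had no count. The study compared U87MG cells under normal growth conditions (control, 2 libraries) with U87MG cells treated with Erastin (10 μM, 72 h; 2 libraries), a small molecule that blocks cystine uptake by system Xc-. Total RNA of both groups was sequenced in 4 of the 18 samples of the series. Both groups come from 1 cell line, and nothing in the labels says that the replicates were separate cultures, so p-values measure only the spread between these libraries.

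Filaggrin is made as a large precursor that epidermal cells store in keratohyalin granules. When the cells flatten into the horny layer, the precursor is cut into repeated units that bundle keratin filaments and are later broken down into amino acids that keep the skin moist. Every protein of the family starts with a calcium-binding S100 domain and goes on with tandem repeats, almost all of which are encoded in the last exon. The genes lie in the epidermal differentiation complex, beside those of involucrin, loricrin, the small proline-rich proteins and the late cornified envelope proteins, and they are known for expression in skin, hair follicles and other squamous epithelia rather than in glia.

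The libraries held between 29412656 and 31513519 counts. The genes tested by edgeR numbered 16751, and their median log2 fold change was −0.0026. As a check of the treatment, SLC7A11, the transporter subunit of system Xc-, had 504 and 550 counts in control cells and 6535 and 6783 in Erastin-treated cells (log2 fold change 3.67 ± 0.0789 SE; edgeR quasi-likelihood test, Benjamini-Hochberg adjusted p = 1.66e-10). CHAC1, which degrades glutathione, was also higher, by 2.76 ± 0.124 (SE) on the log2 scale (edgeR adjusted p = 8.80e-09). Of 13 glial or glioma markers, 12 had counts in some library, although S100B and FABP7 had 2 at most, whereas AQP4 had none. VIM, an intermediate filament of mesenchymal and glial cells, was abundant in both groups (2515 ± 46.1 and 1664 ± 78.9 CPM, the counts of a gene as a share of its library's TMM-scaled total; SD, n = 2). GFAP, the filament of astrocytes, had 46 and 41 counts in control cells and 69 and 81 in Erastin-treated cells, and SOX2, a stem cell factor, had 0 to 6.

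The bases before the start site of the 7 protein-coding genes are shown because they let the members that were higher be set beside those with few or no counts. Each line gives 120 bases of GRCh38.p14 from RefSeq, read 5′ to 3′ on the minus strand of each gene and ending at the base before its start. Capitals mark the letters TGANTCA, a loose form of the motif of AP-1 factors with any base at N, and TATAAA, the TATA box.
FLG, chr1:152325240-152325359: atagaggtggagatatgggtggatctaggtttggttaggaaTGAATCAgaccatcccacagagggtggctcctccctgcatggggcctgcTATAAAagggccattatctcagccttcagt
FLG2, chr1:152360007-152360126: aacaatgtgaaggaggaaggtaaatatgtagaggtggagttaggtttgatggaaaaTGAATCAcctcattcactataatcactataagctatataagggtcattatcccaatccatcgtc
HRNR, chr1:152224194-152224313: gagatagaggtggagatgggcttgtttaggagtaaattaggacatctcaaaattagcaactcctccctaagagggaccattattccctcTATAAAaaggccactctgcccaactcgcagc
RPTN, chr1:152159229-152159348: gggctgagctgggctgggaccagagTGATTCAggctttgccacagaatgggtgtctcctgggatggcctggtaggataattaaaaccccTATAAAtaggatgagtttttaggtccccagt
CRNN, chr1:152414264-152414383: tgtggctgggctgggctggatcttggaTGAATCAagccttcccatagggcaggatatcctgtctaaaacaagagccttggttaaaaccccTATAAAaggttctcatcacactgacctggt
TCHH, chr1:152115445-152115564: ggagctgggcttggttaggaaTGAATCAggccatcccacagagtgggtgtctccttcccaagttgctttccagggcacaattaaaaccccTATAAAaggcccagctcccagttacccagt
TCHHL1, chr1:152089065-152089184: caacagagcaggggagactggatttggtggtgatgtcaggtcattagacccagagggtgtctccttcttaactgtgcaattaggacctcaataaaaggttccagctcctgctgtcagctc

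Within 250 bases before the start, searched on both strands, TGANTCA was present in 6 of the 7 genes and in 6.57% of 35116 RefSeq promoters. The 6 matches read TGAATCA or TGATTCA, so none had the C or G at N of the stricter AP-1 motif. HRNR was the gene without it, and in TCHHL1 it lay beyond the printed stretch, 215 to 209 bases before the start. TATAAA, searched on the strand of the gene, was found in 5 of the 7, at 30 or 31 bases before the start, and in 6.80% of all promoters. FLG2 and TCHHL1 did not hold these letters. The antioxidant response element (TGACNNNGC) and the AHR response element (GCGTG) occurred in 0 of the 7, compared with 10.9% and 32.2% of all promoters. A C/EBP-ATF element (TGATGNAA) was found in FLG2 and a p53 half-site in HRNR, each in 1 of the 7 (3.14% and 5.57% of all promoters). The letters TGANTCA were held by FLG and FLG2, with more counts in Erastin-treated cells, and by RPTN, CRNN, TCHH and TCHHL1, with few or no counts in either group. HRNR, also with more counts in Erastin-treated cells, did not hold them. Whether any of these letters bears on the counts was not tested. FLG-AS1 was not matched.

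FLG (ENSG00000143631), which encodes the filaggrin precursor, lies on the minus strand of chromosome 1 from 152302175 to 152325203. Control libraries held 61 and 86 counts of it and Erastin libraries 1396 and 1137. Both Erastin libraries lay far above both control libraries. Normalized, FLG stood at 2.38 ± 0.547 CPM in control cells against 41.4 ± 7.41 CPM after Erastin (SD, n = 2 each), a difference of 4.12 ± 0.185 (SE) on the log2 scale or 17.4-fold. Keratinocytes express FLG only late in differentiation, and markers of that cell type were read beside it. Of 15 keratinocyte markers, 8 were at 0 counts in all 4 libraries, among them the basal keratins KRT5 and KRT14, the suprabasal keratin KRT1, loricrin and CASP14, a protease of filaggrin breakdown. The 15 markers summed to 22.5 and 20.3 CPM in control cells and 26.8 and 28.7 CPM in Erastin-treated cells, and without KRT10, a keratin that U87MG cells also expressed, to 0.458 and 1.03 CPM against 2.01 and 1.85 CPM. A wider list of 30 keratinocyte genes, which holds most of the 15 and adds KRT15, SBSN, DMKN, PPL and others, summed the other way, to 172 and 164 CPM in control cells and 126 and 129 CPM in Erastin-treated cells.

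HRNR (ENSG00000197915) encodes hornerin, a repeat protein of the cornified envelope, and lies on the minus strand from 152212082 to 152224193. It had 62 and 70 counts in control libraries and 968 and 795 in Erastin libraries. The groups did not overlap, and the lower Erastin library exceeded the higher control library more than in FLG2 but less than in FLG. Hornerin RNA stood at 2.14 ± 0.160 CPM in control cells against 28.8 ± 4.99 CPM after Erastin (SD, n = 2 each), 3.75 ± 0.176 (SE) apart on the log2 scale. FLG2 (ENSG00000143520), a second filaggrin-like protein of the horny layer, lies from 152348735 to 152360006 on the same strand. It had 5 and 10 counts in control cells and 90 and 71 in Erastin-treated cells, again without overlap but at much lower depth. In CPM this was 0.243 ± 0.112 against 2.63 ± 0.530 (SD, n = 2 each), or 3.42 ± 0.480 (SE) on the log2 scale. FLG-AS1 (ENSG00000237975) lies on the plus strand from 152168125 to 152445456. It had 25 and 31 counts in control libraries and 535 and 526 in Erastin libraries, and within each group its replicates lay closer together than those of FLG. The antisense RNA stood at 0.908 ± 0.127 CPM in control cells against 17.3 ± 0.810 CPM after Erastin (SD, n = 2 each), 4.25 ± 0.204 (SE) apart on the log2 scale. The 4 genes differed by 10.7-fold (FLG2), 13.4-fold (HRNR), 17.4-fold (FLG) and 19.0-fold (FLG-AS1) between the groups. When single libraries were dropped, the log2 difference ranged from 3.90 to 4.36 for FLG, from 3.56 to 3.92 for HRNR, from 4.11 to 4.39 for FLG-AS1 and from 3.01 to 3.97 for FLG2.

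The other members had few or no counts. RPTN (ENSG00000215853), which encodes repetin, an epidermal matrix protein, had 8 and 18 counts in control cells and 6 and 20 in Erastin-treated cells. The groups overlapped fully, with 1 low and 1 high library in each, and the fitted fold was 0.999 (standard error of the log2 fold change 0.779). TCHH (ENSG00000159450) encodes trichohyalin, a structural protein of the inner root sheath of hair. It had 8 and 6 counts in control cells and 6 and 0 in Erastin-treated cells, which was below the filter. CRNN (ENSG00000143536), known as cornulin of the oesophageal epithelium, and TCHHL1 (ENSG00000182898), a trichohyalin-like gene, had 0 counts in all 4 libraries. A count of 0 was set against a floor of 3 counts, or 0.0955 to 0.100 CPM by library (counting error only). Both reads of a pair were counted, so 3 counts can come from fewer fragments and the true limit lies higher. Low expression of both genes was thus not detectable at this depth. The plot of counts by gene and library shows the gap in FLG, FLG2, HRNR and FLG-AS1 and its absence in RPTN.

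**Figure D1:**
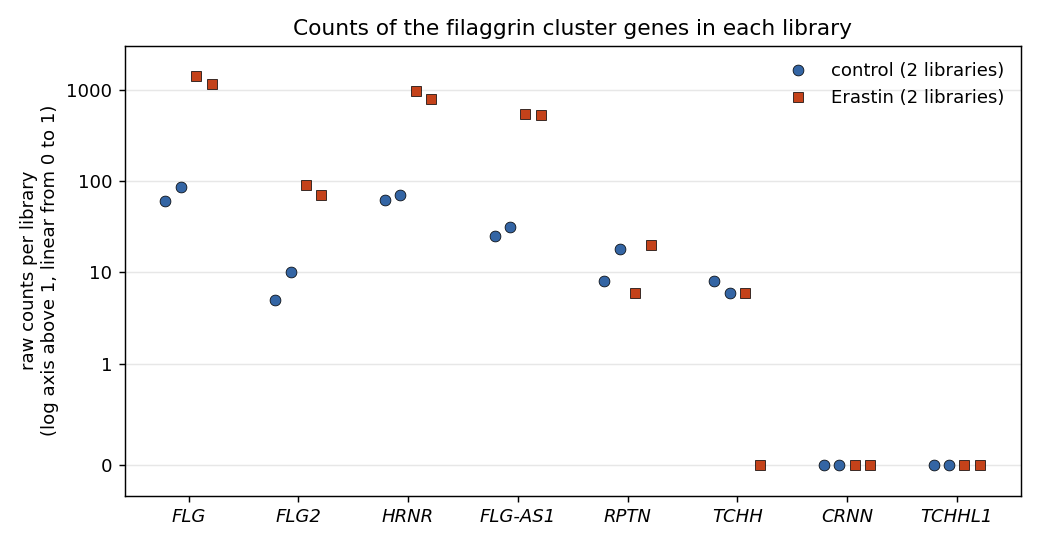
Raw counts (vertical axis, logarithmic above 1) of the 8 genes in the 2 control libraries (circles) and the 2 Erastin libraries (squares), 1 point per library. FLG, FLG2, HRNR and FLG-AS1 were higher in both Erastin libraries, from 5 to 86 counts in control cells to 71 to 1396, whereas RPTN overlapped and CRNN and TCHHL1 lay at 0.

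A gene counted as called when edgeR gave an adjusted p under 0.05 and the groups lay 1 or more apart on the log2 scale. Of the 5 members tested, 4 were called higher and 0 lower, and over all 16751 genes 6.24% were called higher and 9.34% lower. FLG was chosen by this same contrast and the others for their family or position beside it. FLG2 passed the filter only through Erastin libraries. Nothing is therefore read from the count of members called.

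The members were laid out by their position. FLG-AS1 starts between RPTN and HRNR and spans 277332 bases, with exons on 2.77% of them. HRNR, FLG, FLG2 and CRNN lie within this span on the opposite strand, whereas RPTN, TCHH and TCHHL1 lie before its start. Inside the span, CRNN had no count, and of the genes before it RPTN alone passed the filter, so no relation of position to the difference can be read from these members. CCDST, a noncoding RNA on the plus strand inside the same span, had 1 and 2 counts in control cells and 26 and 18 in Erastin-treated cells (3.78 ± 0.886 SE on the log2 scale, edgeR adjusted p = 0.00415). This call was lost without Erastin replicate 1, with an adjusted p of 0.0729. The span held 1 further gene, the pseudogene HMGN3P1, with 0 counts.

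Levels per length were compared along this span (CPM per kb of exon; mean ± SD, n = 2). In Erastin-treated cells the level was 1.82 for CCDST, whose replicates had 2.19 and 1.44, at 37.7 kb from the start of FLG-AS1. It was 3.00 ± 0.519 for HRNR, at 44 kb, and 3.25 ± 0.582 for FLG, at 134 kb. FLG lay above HRNR in each Erastin library, at 3.66 against 3.36 and 2.84 against 2.63. Reads left out because they matched more than 1 place were not corrected for in this comparison. FLG2, at 181 kb, had 0.289 ± 0.0581, below every library of HRNR and FLG. CRNN, at 241 kb, had 0, where the floor of 3 counts stands at 0.0514. The exons of FLG-AS1 itself had 2.25 ± 0.105, below HRNR and FLG in each library. In control cells the levels were 0.222 ± 0.0166 for HRNR, 0.187 ± 0.0429 for FLG, 0.118 ± 0.0166 for FLG-AS1 and 0.0266 ± 0.0123 for FLG2. RPTN, the nearest member before the start of FLG-AS1, had 0.118 ± 0.0630 in control cells and 0.117 ± 0.0864 in Erastin-treated cells, so in control cells it matched FLG-AS1 and in Erastin-treated cells it lay far below. HRNR, FLG and FLG2 kept similar proportions in both Erastin libraries, with 69.3 and 69.9 HRNR counts and 6.45 and 6.24 FLG2 counts per 100 FLG counts. In control libraries these were 102 and 81.4 for HRNR and 8.20 and 11.6 for FLG2.

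**Figure D2:**
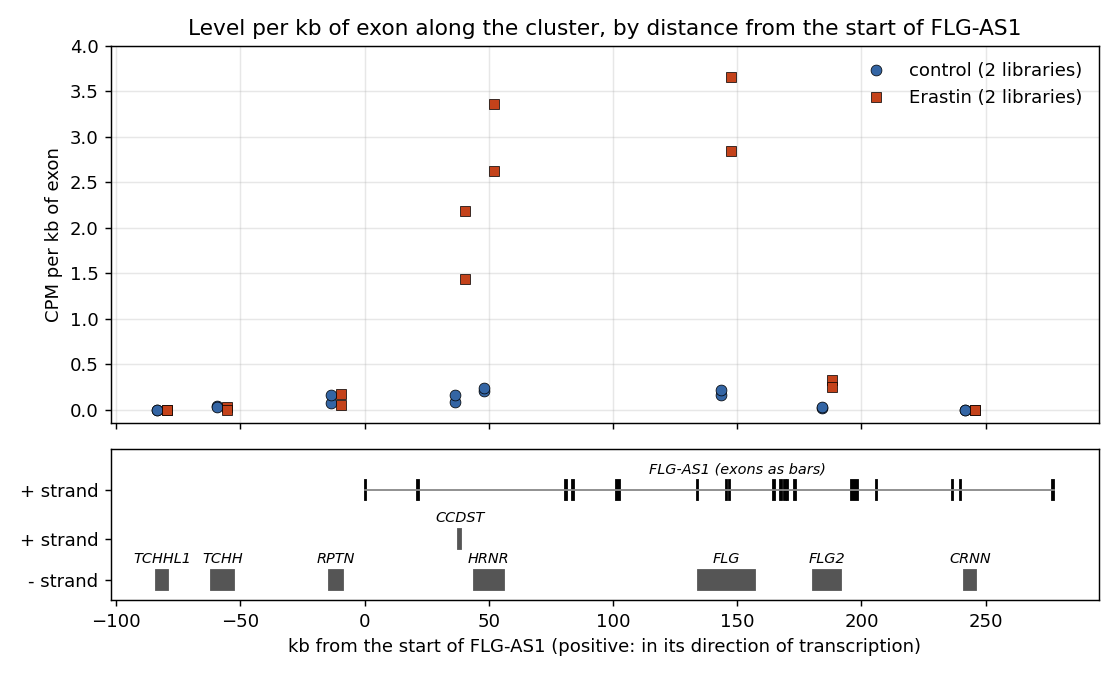
Upper panel: CPM per kb of exon (vertical axis) for each gene in the 2 control libraries (circles) and the 2 Erastin libraries (squares), by distance from the start of FLG-AS1 in kb, the groups drawn slightly apart; FLG-AS1 itself is not plotted there. Lower panel: positions and strands of the genes, with the exons of FLG-AS1 as bars. In Erastin-treated cells HRNR and FLG had 3.00 and 3.25 on average, FLG2 had 0.289, and the genes before FLG-AS1 stayed at or below 0.178 in each library.

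The counts were made without regard to strand. Reads from HRNR, FLG or FLG2 and reads from unspliced RNA of FLG-AS1 over the same bases therefore cannot be told apart. For CCDST, on the same strand as FLG-AS1 and sharing 0 of its exonic bases, strand would not tell such reads apart either. No exonic base of HRNR, FLG2 or CRNN belonged to an exon of FLG-AS1, so the exons of these 3 genes lie in its introns, and a read there was assigned to them whichever strand it came from. FLG was the member whose exons overlapped those of FLG-AS1. They shared 704 bases in 2 stretches, 152313459 to 152314038 (580 bases) and 152314624 to 152314747 (124 bases), both in the last exon of FLG. This was 5.52% of the exonic bases of FLG and 9.15% of those of FLG-AS1, and reads on shared bases were assigned to neither gene. Without the shared bases, the level in Erastin-treated cells was 3.44 ± 0.616 CPM per kb (SD, n = 2) for FLG and 2.48 ± 0.116 for FLG-AS1. FLG-AS1 had 41.0 and 36.0 counts per 100 FLG counts in control libraries and 38.3 and 46.3 in Erastin libraries, so that the groups overlapped in this ratio. Outside the cluster, 62 tested genes lay wholly within an opposite-strand gene that was called higher. Of these 13 (21.0%) were called higher, against 6.24% of all genes tested, and 1 was called lower, against 9.34%. This set was chosen after the data were seen, and the part of opposite-strand reads in it was not tested.

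**Figure D3:**
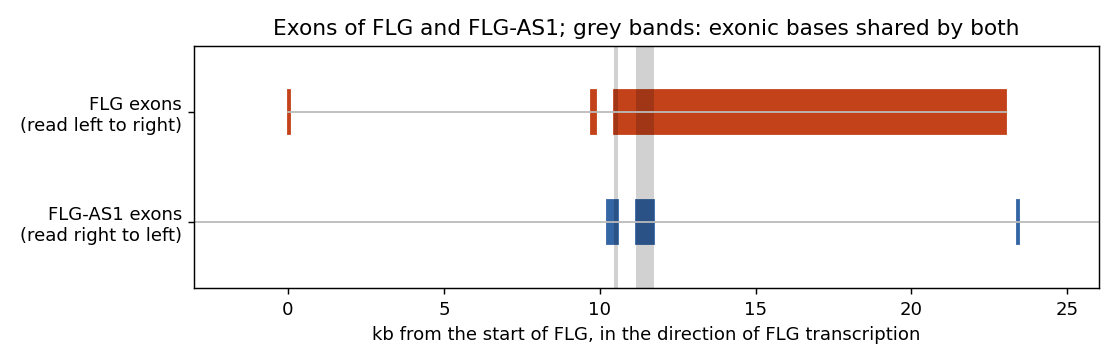
Exons of FLG and of FLG-AS1 by distance in kb from the start of FLG, in the direction of its transcription; FLG-AS1 runs the other way. Grey bands mark the 2 stretches, of 580 and 124 bases, that belong to exons of both genes and whose reads were counted for neither.

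All 7 S100-fused genes had 3 exons in the annotation, and the last one held between 89.4% (CRNN) and 98.6% (FLG) of the exonic bases. The repeats of this exon bear on the counts, since reads that matched more than 1 place were left out. Of the 100-base stretches in the exons of each gene, 15.6% in FLG, 37.0% in HRNR and 1.01% in FLG2 occurred again in the region around the cluster, and 0% in RPTN and CRNN. The read length of these libraries was not given in the sources used here, so how many reads of each gene were left out was not tested.

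The genes whose profile over the 4 libraries was closest to that of FLG included SPINK1, MICA, MORC1 and FLG-AS1, ranked 1 to 4 by the Euclidean distance of centred log2 CPM among 13660 genes that averaged 1 CPM or more. Their distances ran from 0.231 to 0.313, and HRNR ranked 7 (0.442) and FLG2 ranked 78 (1.79). These genes lie on chromosomes 5, 6, 3 and 1. SPINK1, a secreted trypsin inhibitor, had 0.164 and 0.322 CPM in control cells and 13.4 and 10.8 in Erastin-treated cells. MICA, a stress-induced ligand of natural killer cells, had 0.196 and 0.386 CPM and then 14.9 and 11.7. The fitted log2 fold changes of SPINK1 and MICA were 5.61 and 5.49, larger than the 4.12 of FLG. The pseudocount of 0.5 CPM in the distance narrows changes from such low control levels, so these ranks, and that of FLG2, depend on it. MICA has a related gene, MICB, and whether reads were lost between them was not tested.

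Genes around the cluster were compared in the same fit. Within 1 Mb of either end the table listed 121 other genes, of which 62 had no count and 28 were tested. Of the 28, 6 were called higher and 2 lower, against 6.24% and 9.34% of all genes tested, and the median log2 fold change was 0.45. Of the 6, CCDST, LCE1F, IVL, SPRR2D and ENSG00000249602 had too few control counts to pass the filter without their Erastin libraries. None of these could have been called lower, so nothing is read from the counts of calls or from the median. The nearest tested gene before the cluster was S100A11, a calcium-binding protein 36.2 kb away, with 419 ± 13.4 CPM in control cells and 574 ± 19.3 CPM in Erastin-treated cells (SD, n = 2; log2 fold change 0.45, adjusted p = 1.14e-04 from edgeR), below the threshold on the fold change. The nearest tested gene after it was LCE1F, 331 kb away, which was called higher. Besides CCDST, LCE1F, IVL and SPRR2D, the genes called higher were OAZ3, an antizyme of polyamine metabolism, and an unnamed gene on its opposite strand (ENSG00000249602), at log2 fold changes of 1.17 and 2.12 (adjusted p = 0.0429 and 0.00641 from edgeR), whose reads cannot be told apart without strand. Of the genes called lower, CGN, a tight junction protein, fell by 1.41 on the log2 scale (adjusted p = 0.00917 from edgeR). OAZ3 was not called without control replicate 2, Erastin replicate 1 or Erastin replicate 2 (adjusted p = 0.0549 to 0.188) nor by DESeq2 (adjusted p = 0.135), and CGN was not called without control replicate 1 (0.122).

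Of 37 other genes of the epidermal differentiation complex, 26 had no count in any library and 4 were tested. Among these, 3 were called higher and 0 lower, against 6.24% and 9.34% of all genes tested. All 4 had too few control counts to pass the filter without their Erastin libraries, so none could have been called lower. Nothing is read from these calls or from the median log2 fold change of 3.00. IVL encodes involucrin, a scaffold of the cornified envelope, and had 7 and 4 counts in control cells and 26 and 41 in Erastin-treated cells (2.58 ± 0.644 SE on the log2 scale, edgeR adjusted p = 0.00605). SPRR2D, a small proline-rich envelope protein, had 6 and 0 counts and then 33 and 38 (log2 fold change 3.51, adjusted p = 0.00557 from edgeR). LCE1F, a late cornified envelope protein, had 0 and 4 counts and then 29 and 16 (3.43, adjusted p = 0.0139 from edgeR). All 3 genes stayed below 1.4 CPM, far under FLG and HRNR in the same cells. PRR9, the other tested gene, had 0 and 6 counts in control cells and 10 and 16 in Erastin-treated cells (adjusted p = 0.129 from edgeR). Without control replicate 2 the difference of SPRR2D was 2.53 on the log2 scale. Without control replicate 1, which held its control counts, it was 12.0-fold higher against a floor of 3 counts per library. Without Erastin replicate 2, IVL was not called (adjusted p = 0.101), and LCE1F was not called without control replicate 1 or Erastin replicate 1 (0.0753 and 0.157).

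Of 20 genes that process or break down filaggrin, 8 were tested, with 0 called higher and 1 lower (6.24% and 9.34% of all genes tested). PADI3, which converts arginine residues of filaggrin and trichohyalin to citrulline, had 132 and 30 counts in control cells and 0 in both Erastin libraries (adjusted p = 2.20e-04 from edgeR). It passed the filter only through control libraries, so it could not have been called higher. Against a floor of 3 counts per library it was 27-fold lower, and 9.88-fold lower without control replicate 1. BLMH, a hydrolase that completes filaggrin breakdown, was lower by less than the threshold (log2 fold change −0.68, adjusted p = 2.65e-04 from edgeR). FURIN, which cuts the filaggrin precursor, had 239 ± 8.64 and 233 ± 3.34 CPM (SD, n = 2), and CASP14, TGM3, TGM5 and SPINT1 had no count.

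Among 30 keratinocyte markers, 9 were tested, with 2 called higher and 4 lower (6.24% and 9.34% of all genes tested). KRT16, a keratin of stressed epidermis, and DSC3, a desmosomal cadherin, had 0 counts in both control libraries and 28 and 14, and 20 and 10, in Erastin libraries. Both thus passed the filter only through Erastin libraries. Against a floor of 3 counts per library they were 7.10-fold and 5.07-fold higher (adjusted p = 0.00198 and 0.00499 from edgeR). Without Erastin replicate 1 these folds were 4.58 and 3.27, and neither gene passed the filter then or with counts divided by 2. KRT15, a keratin of basal cells, had 210 and 213 counts and then 10 and 17 and fell by 3.95 on the log2 scale (adjusted p = 1.17e-06 from edgeR). SBSN (suprabasin) fell by 1.87, DMKN (dermokine) fell by 1.65 and PPL (periplakin), a linker of the cornified envelope to keratin, fell by 2.41 (adjusted p = 6.81e-07, 1.05e-04 and 3.82e-04 from edgeR). PPL fell by 3.26 without Erastin replicate 1 and fell by 1.87 without Erastin replicate 2. KRT16 and DSC3 could not have been called lower, so nothing is read from the directions of the calls in this list. The tested markers had a median log2 fold change of 0.01. TP63, the defining factor of stratified epithelia, had 4 and 10 counts in control cells and 0 in both Erastin libraries, below the filter.

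Of 35 regulators of epidermal differentiation, 26 were tested, with 2 called higher and 4 lower (6.24% and 9.34% of all genes tested). Their median log2 fold change was 0.13. VDR, the vitamin D receptor, rose from 8.0 ± 1.08 to 37.2 ± 3.25 CPM (SD, n = 2; log2 fold change 2.22, adjusted p = 1.09e-07 from edgeR). FOS, a subunit of AP-1, fell from 104 ± 0.377 to 15.8 ± 1.98 CPM (log2 fold change −2.72, adjusted p = 1.54e-09 from edgeR), whereas the AP-1 subunits JUN (0.19), JUND (0.59), JUNB (−0.38), FOSL1 (−0.28) and FOSL2 (−0.38) changed by less than the threshold. AHR, a ligand-activated factor, fell by 1.41 and PPARG, a nuclear receptor, by 1.42 on the log2 scale (adjusted p = 4.80e-08 and 5.67e-06 from edgeR). HES1, a Notch target, had 5 and 2 counts and then 16 and 19, and GRHL1, a grainyhead factor, 36 and 44 and then 6 and 20, but neither was called with DESeq2 (adjusted p = 0.128 and 0.0971). HES1 passed the filter only through Erastin libraries and GRHL1 only through control libraries, so the direction of their calls was fixed. HES1 was not called when any 1 library was left out (adjusted p = 0.0869 to 0.256), and GRHL1 not without control replicate 2 or Erastin replicate 1 (0.124 and 0.184). Their log2 differences ranged from 1.77 to 3.07 for HES1 and from −2.67 to −1.02 for GRHL1 with single libraries left out.

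Of 8 AHR targets and related genes, 6 were tested. TIPARP rose by 1.37 on the log2 scale (adjusted p = 1.09e-07 from edgeR) and was the 1 called, against 6.24% of all genes called higher. CYP1B1 (0.80), NQO1 (0.92) and AHRR (0.37) were higher by less than the threshold, and the list had a median of 0.77. Of 14 glial and glioma markers, 10 were tested and 4 were called lower, against 9.34% of all genes tested, and the median log2 fold change was −0.50. They were NES, a filament of neural progenitors (−3.62), SLC1A3, a glutamate transporter (−2.45), CHI3L1, a secreted glycoprotein (−2.26), and SOX9 (−1.26), with adjusted p-values of 3.97e-08, 5.34e-09, 3.51e-09 and 2.97e-05 from edgeR. GFAP, with a log2 fold change of 0.79, did not pass (adjusted p = 0.0696 from edgeR).

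**Figure D4:**
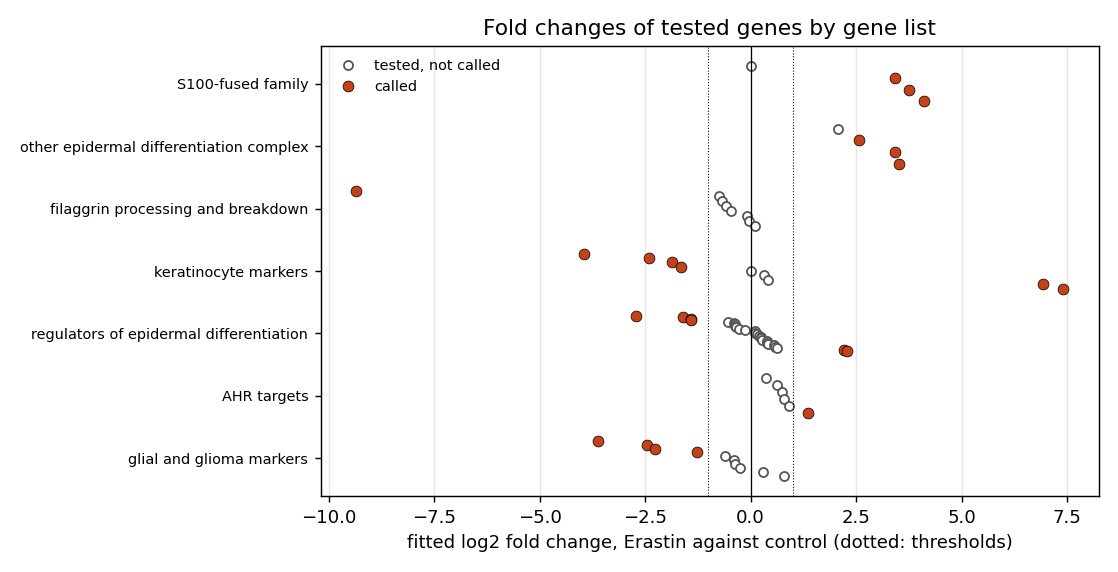
Fitted log2 fold change of Erastin against control (horizontal axis) for each tested gene of 7 lists, 1 point per gene; filled points were called and dotted lines mark the threshold on the fold change. FLG, FLG2 and HRNR and the 4 tested genes of the rest of their complex lie to the right and RPTN at 0. Those 4 passed the filter only through Erastin libraries. Keratinocyte markers and regulators fall on both sides. PADI3, KRT16 and DSC3 had a group at 0, so their positions are no measure of size.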

How the data were processed

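Total RNA libraries of control and Erastin-treated U87MG cells were analysed (2 each); ChIP-seq and HiChIP samples were not analysed here. The authors deposited raw counts of reads per gene, written per the file header by featureCounts 2.0.3 (2.0.4 in the submitters' processing notes, htseq-count in the methods) after HISAT2 2.1.0, with the Ensembl release 90 annotation of GRCh38. Strand was not used, reads on more than 1 gene or place were left out, and both reads of a pair were counted. The deposited values were whole numbers, not estimated counts; rounding changed 0 of them. Gene symbols were those of GENCODE release 44.

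Counts were filtered (filterByExpr, minimum 10), TMM-scaled and tested with edgeR 4.0.16 in R 4.3.3 (quasi-likelihood, two-sided, Benjamini-Hochberg over 16751 genes); DESeq2 1.42.0 was an alternative. On simulated data with 200 of 16751 genes changed, edgeR recovered 200 and called 1 unchanged gene, and DESeq2 recovered 196 and called 0. The changed genes all averaged above 1 CPM, with large folds and the same dispersion for every gene. This says nothing of genes at lower levels. Two-sided permutation of 2 against 2 libraries cannot give a p below 0.333. Replicates differed beyond counting noise (mean chi-square per gene 11.1 and 9.10). Promoters came from RefSeq (GRCh38.p14), and recurring stretches were counted in hg38. Members and lists were chosen with earlier results of these data known. The genes named were the members, genes overlapping them, called neighbours and list genes with the largest changes (up to 4 a direction), set markers, and the 5 genes most like FLG (pseudocount 0.5 CPM); some items that this rule names are not reported here. OAZ3 and its opposite-strand gene, BLMH, FURIN, PRR9 and uncalled list genes were named after their values were seen.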

Additional observations from a re-analysis of the deposited data

How the results depend on the processing

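FLG, FLG2, HRNR and FLG-AS1 kept their direction, given here as a description, under DESeq2, RLE factors, library totals, no filter, the replicate block, counts divided by 2 and each library left out, as far as they were tested. FLG2 and RPTN were not tested when at least 10 counts in every library were required, nor RPTN with counts divided by 2. Outside the libraries left out, the log2 fold change lay between 4.10 and 4.17 for FLG, 3.74 and 3.80 for HRNR, 4.19 and 4.30 for FLG-AS1 and 3.31 and 3.46 for FLG2. RPTN, which was not called, ranged from −1.05 to 0.67 with each library left out and lay at the lower end without Erastin replicate 2. The labels number the replicates without naming a pairing, and deviations of same-numbered libraries had a correlation of 0.0293 across genes. With the replicate block, the log2 fold change of FLG was 4.11 with no change of direction in FLG, FLG2, HRNR or FLG-AS1. With at least 10 counts in every library, 0 genes were called among the other genes of the epidermal differentiation complex and 0 among those that process filaggrin, since their called genes were then not tested. Without single libraries the second list had between 1 and 2 called genes. Counting only unshared exonic bases moved FLG-AS1 in Erastin-treated cells to 2.48 CPM per kb. Over all genes, between 791 and 1160 were called higher and between 1341 and 1713 lower under alternatives that kept the 4 libraries. The alternatives for single genes outside the cluster and for folds against the floor of 3 counts were added after the data were seen. Depth limits what can be said of RPTN, TCHH, CRNN and TCHHL1.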
